A study of Vitis labrusca and Vitis cinerea and Vitis acerifolia with 56 samples.

Results

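The 3 chalcone synthase genes of grape, CHS1 (VIT_14s0068g00930), CHS2 (VIT_14s0068g00920) and CHS3 (VIT_05s0136g00260), were followed through berry development in 3 Vitis species and under several light treatments. They were taken by identifier from a table of 29971 genes, and all 3 were present in all 56 libraries. Chalcone synthase makes the first committed step of flavonoid synthesis. It condenses 4-coumaroyl-CoA, the product of the phenylpropanoid pathway, with malonyl-CoA into naringenin chalcone, from which flavonols, proanthocyanidins and the anthocyanins that colour the berry skin are built. Stilbene synthases use the same substrates to make resveratrol. In grape, ripening starts at veraison, when the berry softens and, in coloured berries, anthocyanins begin to accumulate.

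The libraries were made from total RNA of berries, 24 labelled V. labrusca, 22 V. cinerea and 10 V. acerifolia. The V. labrusca vines are entered as a hybrid between V. vinifera and V. labrusca, the V. cinerea vines as an American native species and the V. acerifolia vines as a wild species. Berries were taken as young berries (V. labrusca and V. cinerea), at pre-veraison (2 weeks before veraison), at veraison, 2 weeks after veraison and at maturity. Clusters hung in sunlight throughout or were enclosed in foil-covered boxes until pre-veraison, until veraison or throughout; below, berries still enclosed when harvested are called boxed and berries uncovered before harvest are called re-exposed. The series was designed around V. labrusca as a grape that needs sunlight for anthocyanin and the other species as grapes that do not. The 35 combinations of species, stage and treatment hold 2 libraries in 21 cases and 1 library in 14, and no V. acerifolia combination has a second library. Nothing in the labels says that the libraries of a group came from separate vines, so each p-value measures the spread between these libraries, which may be technical.

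Values are FPKM, fragments scaled to transcript length and to the mapped fragments of the library, so levels of different genes can be set side by side per length. Read depth is unknown. In 3 V. labrusca libraries, called sparse here, fewer than 1% of detected values lay below 1 FPKM (the first young-berry library, the first sunlight library at veraison and the first library uncovered at pre-veraison 2 weeks after veraison). Summed FPKM ran from 764972 to 1882690 per library. Private genes, higher by at least 1 on the log2 scale in every library of a species than in any library of the others up to veraison (22 for V. labrusca, 13 for V. cinerea, 271 for V. acerifolia), were used to check the species labels. In 9 of 31 libraries after veraison the largest share of private genes at their species' level was that of another species. These are the 3 mature V. acerifolia libraries that were not boxed and the second mature V. labrusca libraries in sunlight and uncovered at pre-veraison, all with V. cinerea genes (46.2% to 100% of them at that level); the first mature sunlight V. cinerea library, with V. labrusca genes (77.3%); and the 3 re-exposed V. cinerea libraries 2 weeks after veraison, with V. acerifolia genes (19.9% to 22.9%). These 9 are given under their labels, and results resting on them are also given without them ("without the 9 libraries"). Libraries counted as matching could also have low shares of their own species' genes. The share was 21.4% in the boxed mature V. acerifolia library and 23.1% in the mature V. cinerea library uncovered at pre-veraison. The species of the remaining libraries is thus not established by this check. For the V. labrusca libraries, the organism and cultivar entries used here contradict the free-text descriptions, which read as V. cinerea. In 2 V. labrusca libraries of veraison, the second sunlight library and the second boxed library, the stage entry (2 weeks after veraison) conflicts with the title. CHS1 and CHS2 carry consecutive identifiers and stand in adjacent rows of the table; near-identical copies can share reads, so their separate levels are uncertain. In bulk RNA of berries, fewer cells of a type and less RNA per cell cannot be told apart.

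CHS3 was the most abundant copy in 53 of 56 libraries and CHS1 the least abundant in 55 of 56. Over all libraries CHS3 had a median of 1919 FPKM and a range from 20.1 to 13232 FPKM. CHS2 had a median of 221 FPKM, from 20.6 to 1516 FPKM, and CHS1 a median of 30.8 FPKM, from 3.28 to 285 FPKM. At its highest, CHS3 ranked 8 among all genes and made up 0.954% of the summed FPKM of a library. At its lowest it ranked 6118, in a boxed pre-veraison V. labrusca library. The exceptions to the usual order were all V. labrusca libraries up to pre-veraison, where the copies lay close together. The plot of levels by stage shows all 56 libraries.

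**Figure D1:**
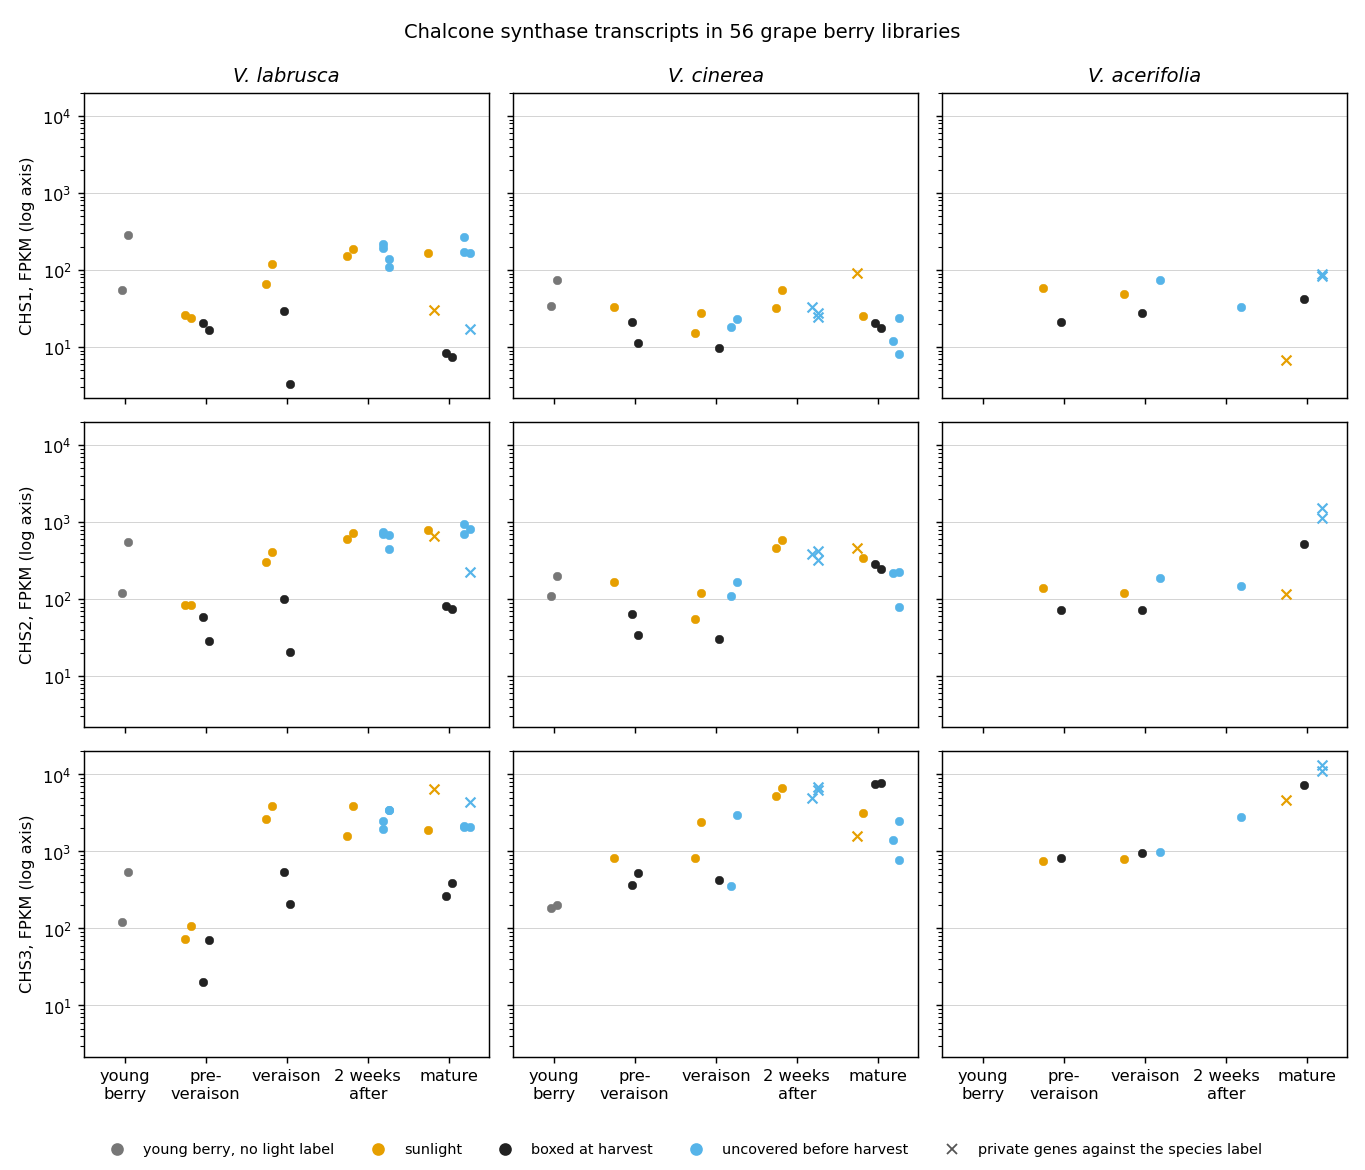
FPKM of CHS1, CHS2 and CHS3 (rows, log axis) by stage in each species (columns); each point is 1 library, coloured by light at harvest, and crosses mark the 9 libraries whose private genes go against the species label. The boxed V. labrusca libraries at veraison and maturity lie between 205 and 545 FPKM of CHS3, below the 14 others from veraison on, which start at 1573 FPKM.

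In sunlight V. labrusca berries, CHS3 and CHS2 rose between pre-veraison and veraison and passed at no later step, while CHS1 did not pass the test. Of 20333 genes, 3 were called from veraison to 2 weeks later and 1 from then to maturity. The missing calls at these later steps thus say little about the copies. CHS3 measured 73.2 and 109 FPKM in the 2 pre-veraison libraries, 2657 and 3844 FPKM at veraison, 1573 and 3850 FPKM 2 weeks later and 1883 and 6570 FPKM at maturity. The ranges before and after veraison did not overlap. CHS2 went from 84.0 and 83.6 FPKM at pre-veraison to 302 and 406 FPKM at veraison, 599 and 716 FPKM 2 weeks later and 792 and 661 FPKM at maturity. CHS1 measured 25.7 and 23.7 FPKM at pre-veraison, 65.3 and 118 FPKM at veraison, 151 and 187 FPKM 2 weeks later and 168.5 and 29.9 FPKM at maturity. The last of these came from the mature sunlight library with V. cinerea genes.

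All fold changes below are differences of log2(FPKM + 1) from limma with Benjamini-Hochberg adjustment over all genes tested, with an adjusted p under 0.05 called. From pre-veraison to veraison in V. labrusca, CHS3 rose by 5.15 (SE 0.82, adjusted p = 0.000202) and CHS2 by 2.05 (SE 0.62, adjusted p = 0.0276), where 2.85% of all genes were called higher. The CHS2 call at this step was lost without the sparse libraries (adjusted p = 0.0554), without the libraries of conflicting stage (0.0695), when V. labrusca was fitted by itself (0.066) and without any 1 of its 4 libraries (0.0976 to 0.124). From pre-veraison to maturity, CHS3 rose by 5.28 (SE 0.82, adjusted p = 7.7e-05) and CHS2 by 3.09 (SE 0.62, adjusted p = 0.000986), beside 4.89% of genes called higher. CHS1 differed by 1.49 (SE 0.92, adjusted p = 0.274). Without the 9 libraries that go against their label, CHS1 rose by 2.72 over the same interval (adjusted p = 0.0476).

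The young-berry libraries of V. labrusca lay far apart. The 2 libraries measured 55.3 and 285 FPKM of CHS1, 120 and 559 FPKM of CHS2 and 123 and 542 FPKM of CHS3. The step from young berry to pre-veraison passed for no copy in either species, with adjusted p-values from 0.126 to 0.95. Of 20333 genes, 1427 were called in either direction at this step in V. labrusca and 2552 in V. cinerea. Without the sparse libraries, which include the lower of the V. labrusca pair, CHS2 was lower at pre-veraison by 2.72 (-2.72, adjusted p = 0.0151). In V. cinerea the young berries had 33.8 and 74.8 FPKM of CHS1, 110 and 202 FPKM of CHS2 and 185 and 205 FPKM of CHS3.

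In sunlight V. cinerea, CHS2 rose between veraison and 2 weeks later, and no copy passed at any other single step. From 2 weeks after veraison to maturity, only 5 of 20333 genes were called in either direction. CHS3 measured 826 FPKM in the single pre-veraison library, 822 and 2395 FPKM at veraison, 5256 and 6636 FPKM 2 weeks later and 1601 and 3150 FPKM at maturity. CHS2 measured 170 FPKM at pre-veraison, 54.7 and 122 FPKM at veraison, 457 and 587 FPKM 2 weeks later and 459 and 340 FPKM at maturity. CHS2 rose by 2.65 from veraison to 2 weeks later (SE 0.62, adjusted p = 0.0146), beside 0.846% of genes called higher. That call was lost without the first library of either stage (adjusted p = 0.199 and 0.2). CHS3 differed by 2.07 at the same step (SE 0.82, adjusted p = 0.145). From pre-veraison to maturity no copy passed (differences of 0.52, 1.21 and 1.44 for CHS1, CHS2 and CHS3 against the single pre-veraison library; adjusted p from 0.298 to 0.844), although 18.6% of all genes were called in either direction. CHS1 reversed to -0.38 when the 9 libraries were left out.

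At matched stages in sunlight, V. labrusca had more CHS2 than V. cinerea at veraison, by 2.08 (SE 0.62, adjusted p = 0.0189; 3.88% of genes called higher). That call was lost without the 2 libraries of conflicting stage (1.87, adjusted p = 0.054), without either V. labrusca library (0.0699 and 0.0868) and without the first V. cinerea library (0.196). CHS1 at veraison, at 2.05 (adjusted p = 0.112), was called without the 9 libraries (adjusted p = 0.0407). CHS3 at pre-veraison, where V. cinerea has 1 library, was lower in V. labrusca (-3.19), short of the threshold (adjusted p = 0.0559), and the call was gained without the 9 libraries (adjusted p = 0.0458) or the sparse ones (0.0443). No copy passed at the other sunlight stages or in young berries. Of 20333 genes, 6 were called in either direction 2 weeks after veraison, 3 at maturity and 1873 in young berries. At the 2 late stages the missing calls thus say little about the copies. All species are counted on the same gene identifiers, and how well the reads of each matched them was not tested.

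All copies were lower in boxed V. labrusca berries. At pre-veraison the boxed libraries measured 20.2 and 16.7 FPKM of CHS1, 58.0 and 28.6 FPKM of CHS2 and 20.1 and 69.8 FPKM of CHS3. At veraison they measured 29.6 and 3.28 FPKM of CHS1, 99.97 and 20.6 FPKM of CHS2 and 545 and 205 FPKM of CHS3. At maturity they measured 8.29 and 7.31 FPKM of CHS1, 82.7 and 74.0 FPKM of CHS2 and 261 and 389 FPKM of CHS3. Each boxed library lay below both sunlight libraries of its stage for every copy, so the groups did not overlap at any of the 3 stages.

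Over the 3 stages together, boxed minus sunlight was -2.27 for CHS1 (SE 0.53, adjusted p = 0.00788), -2.40 for CHS2 (SE 0.42, adjusted p = 0.000716) and -2.62 for CHS3 (SE 0.48, adjusted p = 0.00112). All 3 copies were called lower, where 1.39% of 20252 genes were. The differences without the 9 libraries were -2.58, -2.43 and -2.34 (adjusted p = 0.00122, 0.00102 and 0.00554). The CHS1 call was lost without the 2 libraries of conflicting stage (-1.81, adjusted p = 0.0633). Stage by stage, no copy passed at pre-veraison (-0.41, -1.02 and -1.22), where 10 of 20333 genes were called in either direction. At veraison CHS2 (-2.91, adjusted p = 0.0166) and CHS3 (-3.25, adjusted p = 0.0335) fell and CHS1 was at -2.96 (adjusted p = 0.0801), beside 0.457% of genes called lower. CHS1 was called as well without the 9 libraries (-2.96, adjusted p = 0.0281). The calls at veraison were lost without the sparse libraries, without the libraries of conflicting stage and in a fit of V. labrusca alone (adjusted p from 0.0613 to 0.348). Without 1 library, CHS2 lost its call without the second boxed library (0.36) or the first sunlight library (0.158), and CHS3 without any 1 of the 4 (0.0674 to 0.391). At maturity CHS2 (-3.19, adjusted p = 0.00463) and CHS3 (-3.46, adjusted p = 0.0156) fell and CHS1 was at -3.04 (adjusted p = 0.0583), beside 1.17% of genes called lower. Without the 9 libraries, which include the second mature sunlight library, CHS3 was at -2.56 (adjusted p = 0.232; 0.118 and 0.0553 without the first and second boxed library alone) and CHS1 was called (-4.27, adjusted p = 0.0122).

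In V. cinerea no copy passed over stages. Boxed minus sunlight was -0.996 for CHS1 (adjusted p = 0.434), -1.03 for CHS2 (adjusted p = 0.279) and 0.21 for CHS3 (adjusted p = 0.908), with 0.36% of genes called in either direction. CHS1 and CHS2 were lower in each of the 5 boxed libraries than in the sunlight libraries of their stage. CHS3 was lower in the boxed libraries at pre-veraison (366 and 530 FPKM against 826 FPKM in sunlight) and veraison (422 FPKM against 822 and 2395 FPKM) and higher at maturity (7490 and 7664 FPKM against 1601 and 3150 FPKM). At maturity this came to 1.75 (SE 0.82, adjusted p = 0.189), short of the threshold, beside 10% of genes called in either direction. The first of the sunlight libraries there is the one with V. labrusca genes. Without it the mature CHS3 difference stayed positive, at 1.27, against a single sunlight library. The CHS3 difference over stages turned from 0.21 to -0.21 without the 9 libraries.

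The 10 V. acerifolia libraries hold 1 per condition. CHS3 in boxed against sunlight berries measured 812 against 742 FPKM at pre-veraison, 947 against 800 FPKM at veraison and 7234 against 4671 FPKM at maturity. CHS2 measured 72.8 against 140 FPKM, 73.1 against 119 FPKM and 522 against 116 FPKM at the same stages, and CHS1 20.9 against 59.2 FPKM, 27.7 against 49.4 FPKM and 41.6 against 6.82 FPKM. CHS1 and CHS2 were thus lower in the box up to veraison and higher in it at maturity, where the sunlight library is one of those with V. cinerea genes. The highest CHS3 and CHS2 of the series were in the re-exposed mature libraries, at 13232 and 11063 FPKM of CHS3 and 1516 and 1149 FPKM of CHS2, which also carry V. cinerea genes. The re-exposed libraries at veraison and 2 weeks later measured 990 and 2822 FPKM of CHS3. In the fit over stages no copy passed (0.06, 0.18 and 0.33; adjusted p from 0.93 to 1), with 0.844% of genes called. The differences between V. labrusca and V. acerifolia in this response (-2.33, -2.57 and -2.95) had adjusted p-values of 0.225, 0.09 and 0.09 (0.393 to 0.787 without the 9), and those between V. labrusca and V. cinerea (-1.28, -1.37 and -2.82) of 0.742, 0.588 and 0.193 (0.304 to 0.382). Of 20252 genes, 114 were called in the contrast with V. acerifolia and 0 in that with V. cinerea. The missing calls in the contrast with V. cinerea thus say little about the copies.

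In V. labrusca, berries uncovered before harvest did not differ detectably from sunlight berries. At 2 weeks after veraison, CHS3 measured 2483 and 3429 FPKM in berries uncovered at pre-veraison and 1956 and 3467 FPKM in those uncovered at veraison, against 1573 and 3850 FPKM in sunlight. CHS2 measured 713, 687, 751 and 446 FPKM and CHS1 221, 137, 196 and 109 FPKM in the same 4 libraries. All of the CHS3 values lay between those of the sunlight libraries. Re-exposed berries differed from sunlight berries of their stage by 0.55 for CHS1, 0.05 for CHS2 and 0.03 for CHS3. The 95% intervals of these differences were -0.55 to 1.66, -0.82 to 0.92 and -0.96 to 1.02, and 0% of genes passed in either direction in limma, the only tool run, with 278 at an unadjusted p under 0.05. In V. labrusca only the mature stage holds both boxed and re-exposed libraries. The fit joins the other stages through their sunlight libraries and assumes the same effect of the box at every stage. The comparison of mature berries below uses the same mature libraries. Against boxed berries the re-exposed ones were higher by 2.83 for CHS1 (SE 0.64, adjusted p = 0.00991), 2.45 for CHS2 (SE 0.50, adjusted p = 0.00541) and 2.65 for CHS3 (SE 0.58, adjusted p = 0.00733), beside 0.691% of genes called higher. Each of these calls was lost without the second mature boxed library (adjusted p = 0.0994, 0.0672 and 0.0619), and those of CHS1 and CHS3 also without the first (0.0658 and 0.062). Without the 9 libraries, re-exposed minus sunlight was 0.68, 0.32 and 0.24 (adjusted p = 1 for each) and re-exposed minus boxed 3.26, 2.75 and 2.58 (adjusted p = 0.00117, 0.00195 and 0.011) for CHS1, CHS2 and CHS3. In V. cinerea, re-exposed minus sunlight was -0.84, -0.54 and -0.54 for CHS1, CHS2 and CHS3 (adjusted p from 0.552 to 0.689), with 0.0198% of genes called. Without the 9 these were -0.55, -0.44 and -1.17 (adjusted p from 0.8 to 0.958). CHS3 in V. cinerea uncovered at pre-veraison measured 361 and 2948 FPKM at veraison, wider apart than the sunlight pair. At 2 weeks after veraison the 3 re-exposed libraries measured 4979, 6878 and 6355 FPKM, around the sunlight pair.

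At maturity, CHS3 was higher in uncovered than in never-uncovered V. labrusca berries and lower in V. cinerea. In V. labrusca berries uncovered at pre-veraison, CHS3 measured 2137 and 4403 FPKM and in those uncovered at veraison 2085 and 2085 FPKM, against 261 and 389 FPKM in berries never uncovered. CHS2 measured 699, 226, 953 and 829 FPKM against 82.7 and 74.0 FPKM, and CHS1 171, 17.2, 269.6 and 164 FPKM against 8.29 and 7.31 FPKM. No uncovered library overlapped the never-uncovered ones. The lowest CHS1 and CHS2 and the highest CHS3 of the uncovered berries were all in the library with V. cinerea genes. CHS1 was 3.63 higher (SE 0.79, adjusted p = 0.00732), CHS2 2.91 (SE 0.54, adjusted p = 0.00203) and CHS3 2.98 (SE 0.71, adjusted p = 0.013), beside 1.14% of genes called higher. The calls of CHS1 and CHS3 were lost without either never-uncovered library (adjusted p from 0.0623 to 0.156), with differences of 2.70 to 3.71. Without the 9 libraries the differences were 4.44, 3.32 and 2.72 for CHS1, CHS2 and CHS3 (adjusted p = 0.00039, 0.00136 and 0.033).

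In V. cinerea the 3 uncovered mature libraries measured 785, 1389 and 2517 FPKM of CHS3 and the never-uncovered ones 7490 and 7664 FPKM. CHS3 was lower by 2.64 in uncovered berries (-2.64, SE 0.77, adjusted p = 0.019), beside 11.7% of genes called lower. The call was lost without either never-uncovered library (adjusted p = 0.108 and 0.113). CHS2 was at -0.998 (adjusted p = 0.27), from 79.8, 217 and 226 FPKM against 289.5 and 245 FPKM. CHS1 was at -0.64 (adjusted p = 0.704), from 8.10, 11.96 and 23.97 FPKM against 20.2 and 17.9 FPKM.

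The difference between the species was tested directly, in contrasts chosen after the values were seen. For uncovering at maturity it was 4.28 for CHS1 (adjusted p = 0.0462), 3.91 for CHS2 (adjusted p = 0.00867) and 5.63 for CHS3 (adjusted p = 0.00512), beside 1.57% of genes called higher. The CHS1 difference was lost with a pseudocount of 0.1 (adjusted p = 0.0509) and without the filter (0.06), and without 8 of the 10 libraries left out in turn (0.0553 to 0.168). It was kept without the second V. labrusca library uncovered at pre-veraison and without the second V. cinerea library uncovered at veraison. The V. cinerea library uncovered at pre-veraison is the only one of its group and was not left out. The CHS2 difference was lost without the first never-uncovered V. cinerea library (0.0575). Leaving out the 9 libraries gave 5.09, 4.31 and 5.37 for CHS1, CHS2 and CHS3 (adjusted p = 0.00433, 0.00492 and 0.00663). For boxed minus sunlight at maturity, the difference was -5.21 for CHS3 (SE 1.16, adjusted p = 0.0261), -2.63 for CHS2 (adjusted p = 0.136) and -1.74 for CHS1 (adjusted p = 0.583), beside 0.821% of genes called lower. The CHS3 difference was lost without the 9 libraries (-3.83, adjusted p = 0.248) and without any 1 of 5 libraries, namely either boxed V. cinerea library, the first sunlight V. cinerea library, the first boxed V. labrusca library and the second sunlight V. labrusca library (0.083 to 0.202).

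**Figure D2:**
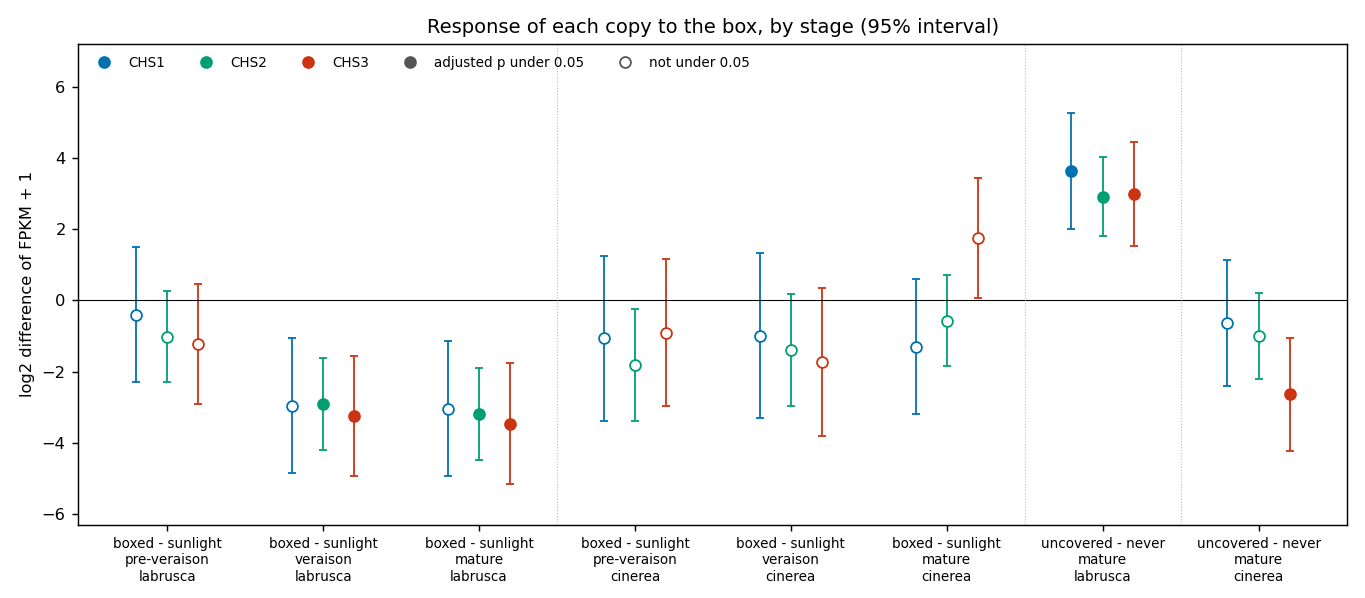
Difference of log2(FPKM + 1) for each copy between boxed and sunlight berries at 3 stages, and between uncovered and never-uncovered mature berries, in V. labrusca and V. cinerea; bars are 95% intervals and filled points have an adjusted p under 0.05. For uncovered mature berries the CHS3 points lie at 2.98 in V. labrusca and -2.64 in V. cinerea.

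Within the box, CHS3 still rose with ripening. In boxed V. labrusca berries it rose by 3.12 from pre-veraison to veraison (SE 0.82, adjusted p = 0.045; 0.654% of genes called higher) and by 3.05 to maturity (SE 0.82, adjusted p = 0.0456; 0.787%). Both calls were lost with a pseudocount of 0.1, without the filter, without the libraries of conflicting stage and in a fit of the species alone (adjusted p from 0.0517 to 0.0825). They were also lost without the first pre-veraison library (0.629 and 0.578), without either veraison library for the first step (0.584 and 0.0721) and without either mature library for the second (0.157 and 0.191). CHS1 (-1.14) and CHS2 (0.92) did not pass from pre-veraison to maturity. Boxed V. cinerea berries at veraison are a single library (422 FPKM of CHS3 and 30.5 FPKM of CHS2), assumed in the fit to vary like the other groups. Against it, CHS3 rose by 4.16 to maturity (SE 1.003, adjusted p = 0.0324) and CHS2 by 3.09 (SE 0.76, adjusted p = 0.0359), beside 0.462% of genes called higher. Both calls were lost with a pseudocount of 0.1 (adjusted p = 0.0523 and 0.0597) and without either mature library (0.12 to 0.157), and that of CHS3 in a fit of V. cinerea alone (0.1). From pre-veraison to maturity, CHS3 rose by 4.10 (SE 0.82, adjusted p = 0.00351) and CHS2 by 2.47 (SE 0.62, adjusted p = 0.0183), beside 2.03% of genes called higher. The CHS3 call was kept without any 1 library, and the CHS2 call was lost without either mature library or the second pre-veraison library (0.103 to 0.204).

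Between boxed berries of the species, CHS3 was lower in V. labrusca at pre-veraison by 3.51 (-3.51, adjusted p = 0.013; 1.99% of genes called lower) and at maturity by 4.57 (-4.57, adjusted p = 0.0017; 5.15%). The mature call was kept without any 1 library and under all named alternatives. The pre-veraison call was lost without the first boxed V. labrusca library (-2.64, adjusted p = 0.24) and without either boxed V. cinerea library (0.0545 and 0.117). At veraison, where V. cinerea has 1 boxed library, the CHS3 difference was only -0.33 (545 and 205 FPKM in V. labrusca against 422 FPKM). CHS1 and CHS2 passed at neither pre-veraison nor maturity.

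In sunlight V. labrusca the share of CHS3 did not overlap between libraries before and after veraison. CHS3 made up 42.7% of the summed FPKM of the copies on average in the 4 young-berry (no light entry) and pre-veraison libraries and 76.4% in the 4 libraries after veraison. The difference of 33.7 percentage points had an exact permutation p of 0.0286, the smallest that 4 against 4 libraries allow, and an adjusted p of 0.0571 over 2 species. This share was tested after its values were seen. The log2 ratio of CHS3 to CHS1 was higher by 3.31, that of CHS3 to CHS2 by 2.05 and that of CHS2 to CHS1 by 1.26, each with the same exact permutation p and adjusted p. The late libraries include the mature sunlight library with V. cinerea genes. Without it the share differed by 29.0 percentage points. The ratios then differed by 2.31 (CHS3 to CHS1), 1.65 (CHS3 to CHS2) and 0.67 (CHS2 to CHS1). In V. cinerea the share of CHS3 went from 59.7% in 3 libraries to 86.7% in 4 (exact permutation p = 0.0857), where the smallest p possible was 0.0286. The lowest late share there, 74.4%, was in the library with V. labrusca genes. The veraison libraries were not part of these tests. Their sunlight shares were 87.9% and 88.0% in V. labrusca and 92.2% and 94.1% in V. cinerea, above the late averages. All these tests are two-sided.

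No shift of the balance by the box was detectable. In V. labrusca the share of CHS3 averaged 68.1% in boxed and 70.5% in sunlight libraries (difference -2.44 percentage points, exact permutation p = 0.796, labels permuted within stage). In V. cinerea it averaged 91.4% and 86.1% (within-stage difference 6.26, exact p = 0.222). Of 9 ratio tests, 3 pairs of copies in 3 species, none passed, with adjusted p-values of 0.964 or more. The smallest exact p possible was 0.00926 in V. labrusca, 0.0185 in V. cinerea and 0.25 in V. acerifolia.

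The ratio of CHS2 to CHS1 did not overlap between late V. labrusca and V. cinerea libraries in light, taking only those whose private genes match the label. In the 10 V. labrusca libraries after veraison that were not boxed and whose private genes match the label, it ran from 3.23 to 5.05, with a median of 4.03. In the 6 such V. cinerea libraries it ran from 9.41 to 18.15, with a median of 12.1. The mature V. labrusca libraries with V. cinerea genes had 22.1 and 13.1, within or above the V. cinerea range, and the V. cinerea library with V. labrusca genes had 5.04. The re-exposed V. cinerea libraries with V. acerifolia genes had 11.6, 13.1 and 15.1, within the range of their label. In V. acerifolia the ratio was 4.47 in the library 2 weeks after veraison and 12.6 to 17.2 at maturity. The 2 boxed mature V. labrusca libraries had 9.99 and 10.1. Up to veraison the ratio lay between 1.71 and 7.34 in both species. These ratios are a description, since reads may be split between the copies differently in each species.

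**Figure D3:**
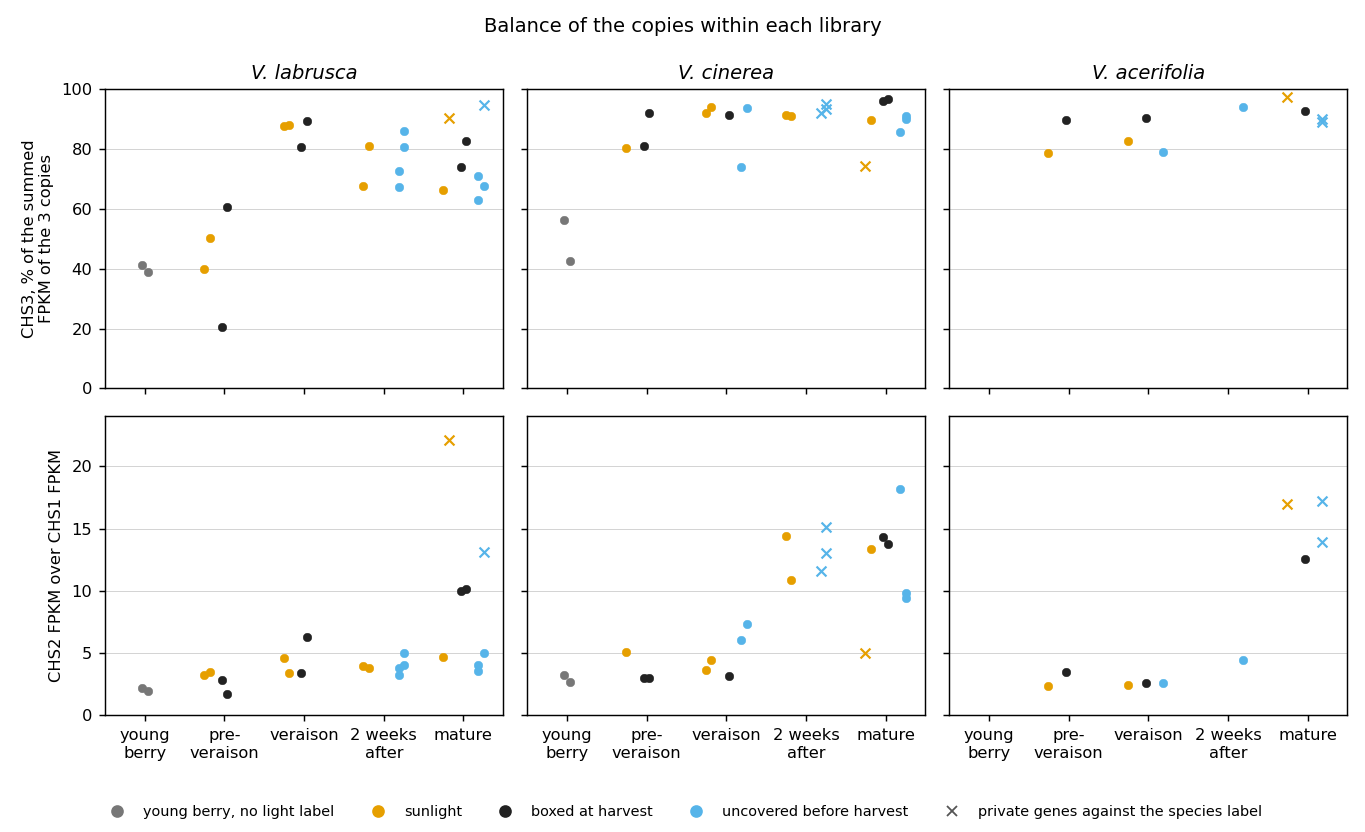
Share of CHS3 in the summed FPKM of the 3 copies (top, percent) and ratio of CHS2 to CHS1 (bottom) in each library by stage; colours show light at harvest and crosses the 9 libraries whose private genes go against the species label. The share of CHS3 in V. labrusca moves from at most 60.7% up to pre-veraison to at least 63.0% from veraison on.

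The other genes of the pathway, in lists chosen with earlier results of these data known, are given for V. labrusca as counts. In boxed against sunlight berries over stages, 3 of 5 phenylpropanoid genes fell, among them PAL (VIT_13s0019g04460), phenylalanine ammonia-lyase, which opens the pathway (-3.34, SE 0.50, adjusted p = 0.000177). Of the 5 genes that act after chalcone, 4 fell, with F3H1 (VIT_04s0023g03370), a flavanone 3-hydroxylase, at -2.49 and CHI1 (VIT_13s0067g03820), a chalcone isomerase, at -1.42 (adjusted p = 0.00227 and 0.0165). In the anthocyanin list 1 of 4 fell, LDOX (VIT_02s0025g04720), which makes anthocyanidins (-2.38, adjusted p = 0.00708). Of the other flavonoid branches 1 of 4 fell, the flavonol synthase FLS1 (VIT_18s0001g03470; -3.18, adjusted p = 0.0166). Of 5 regulators 4 fell, among them HYH (VIT_05s0020g01090), a light-signalling factor (-2.19, adjusted p = 0.00366), and MYBA1 (VIT_02s0033g00410), an activator of anthocyanin genes (-2.28, adjusted p = 0.00861). None of 41 stilbene synthases tested passed, and their median difference was 0.55. Of all genes, 1.39% were called lower. The median was -2.40 over the 3 chalcone synthases and 0.12 over all genes.

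In V. cinerea 1 of the 5 phenylpropanoid genes fell in the box over stages and no gene of the other lists passed, beside 18 of 20252 genes called lower. The median was -0.996 over the chalcone synthases and 0.10 over all genes. At maturity in V. labrusca, 5 of 5 genes after chalcone, 2 of 5 phenylpropanoid genes, 1 of 4 anthocyanin genes, 1 of 5 regulators and none of 40 stilbene synthases were higher in uncovered berries, beside 1.14% of all genes, and PAL was 4.69 higher (SE 0.51, adjusted p = 7.26e-06). In V. cinerea the same comparison had LDOX at -3.37 (adjusted p = 0.00128), UFGT (VIT_16s0039g02230), which glucosylates anthocyanidins, at -4.56 (adjusted p = 0.00336) and PAL at -1.91 (adjusted p = 0.0179), and 8 of 40 stilbene synthases were higher, beside 4.96% of all genes. In all, 1 of 5 phenylpropanoid genes, 1 of 5 after chalcone, 2 of 4 anthocyanin genes and 1 of 5 regulators were lower there, as CHS3 was, beside 11.7% of all genes. The medians of all genes were -0.15 in V. labrusca and -0.11 in V. cinerea; with scaling to median ratios they were at 0 and the directions of the 3 copies were kept.

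**Figure D4:**
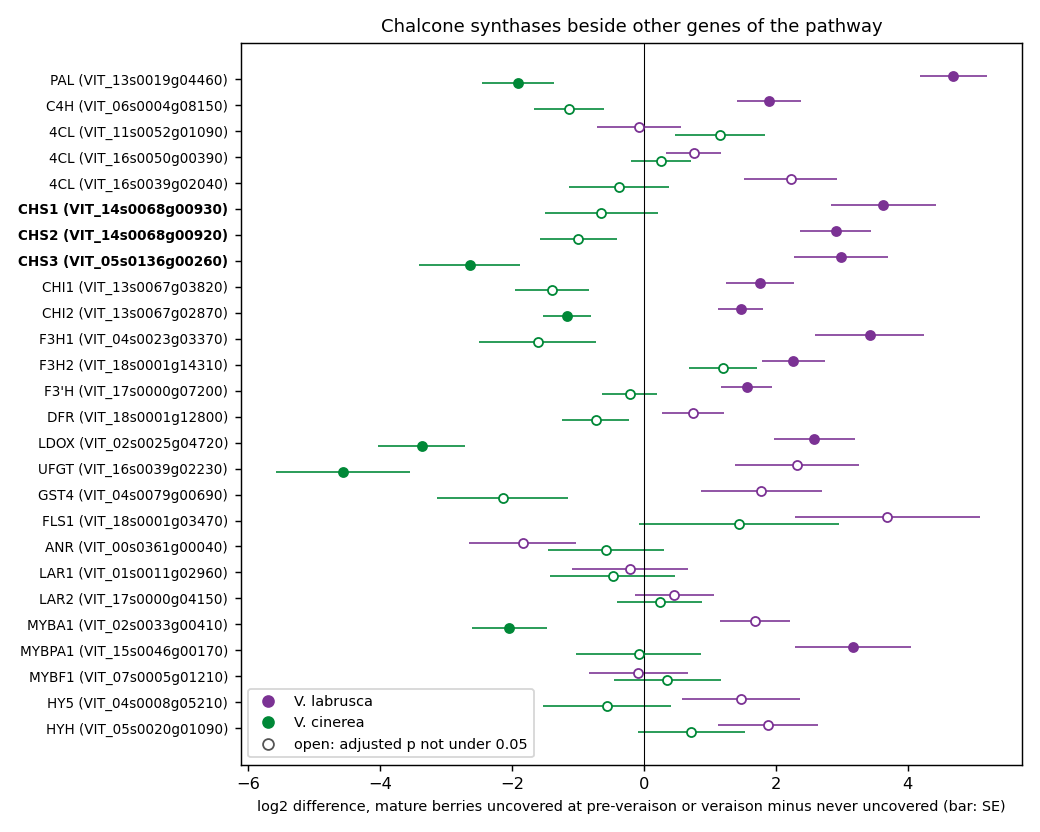
Difference of log2(FPKM + 1) between mature berries uncovered at pre-veraison or veraison and berries never uncovered, for the listed genes (rows) in V. labrusca and V. cinerea; bars are standard errors and filled points have an adjusted p under 0.05. PAL lies at 4.69 and CHS3 at 2.98 in V. labrusca, against -1.91 and -2.64 in V. cinerea.

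The genes whose levels ran most like each copy were sought by Pearson r of log2(FPKM + 1) over the 56 libraries among 20835 genes, as a description; libraries share species, stage and light. CHS2 was most like VIT_06s0004g02620 (r = 0.913), followed by PAL (r = 0.865), VIT_01s0127g00260 (r = 0.823), CHI1 (r = 0.819) and F3H1 (r = 0.815). CHS3 was most like VIT_13s0067g00700 (r = 0.901), followed by F3H1 (r = 0.869), CHI1 (r = 0.863), VIT_05s0049g00520 (r = 0.849) and PAL (r = 0.842). CHS1 was most like VIT_03s0180g00200 (r = 0.792), then CHS2 (r = 0.780), VIT_03s0180g00320 (r = 0.779), VIT_03s0063g01310 (r = 0.747) and VIT_07s0141g00090 (r = 0.734). CHS1 and CHS3 ran least alike of the copies, with r = 0.290 over all libraries and 0.573, 0.119 and 0.143 within V. labrusca, V. cinerea and V. acerifolia. CHS1 and CHS2 had r of 0.890, 0.649 and 0.621 within the same species. CHS2 and CHS3 had 0.820, 0.714 and 0.851, and 0.715 over all libraries. CHS2 thus ran closer to CHS1 in V. labrusca and closer to CHS3 in V. cinerea and V. acerifolia.

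The labels give an anthocyanin concentration for each library, with no unit. In V. labrusca the 4 boxed libraries from veraison on were all at 0 and had 205 to 545 FPKM of CHS3, and the 14 others were at 0.208 to 2.39 and had 1573 to 6570 FPKM. The relation planned over all 18 gave r of 0.55, 0.76 and 0.78 for CHS1, CHS2 and CHS3 (permutation, adjusted p = 0.0267, 0.00087 and 0.00066). Because the libraries fall into these clusters, the relation was also taken within the 14. There r was -0.26 for CHS1, 0.24 for CHS2 and 0.28 for CHS3 (rho -0.037, 0.148 and 0.346; permutation p = 0.366, 0.405 and 0.332; adjusted p = 0.405 for each over 6 relations). Leaving out the 2 libraries farthest from the median concentration gave r of -0.60, -0.28 and 0.69. Leaving out instead those that go against their label gave 0.52, 0.70 and -0.14 over 12 libraries, so the sign of CHS1 and CHS3 rested on them. Of these, r for CHS2 then passed (permutation p = 0.0131, adjusted p = 0.0392 over 3 relations), while its rho of 0.455 did not (adjusted p = 0.207) and r was 0.25 without the 2 libraries farthest from the median.

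In V. cinerea the 5 veraison libraries lay at 0 to 0.2, 7 later libraries at 0.065 to 1.97 and 5 mature ones, in sunlight or uncovered, at 5.22 to 6.97. The last had 785 to 3150 FPKM of CHS3, below the 4979 to 7664 FPKM of the 7. The 7 were the libraries 2 weeks after veraison and the 2 boxed mature ones, at 1.085 and 1.973 with 7490 and 7664 FPKM of CHS3. At maturity the boxed libraries thus had less anthocyanin and more CHS3 than the others. Stage and light at harvest are mixed within the 7. Over the 12 libraries below 3 as planned, r was 0.27, 0.62 and 0.71 for CHS1, CHS2 and CHS3 (permutation, adjusted p = 0.396, 0.0386 and 0.0201). Within the 7, r was 0.85 for CHS3 (rho 0.786; exact permutation p = 0.00417, adjusted p = 0.025 for r and 0.288 for rho). It was 0.74 without the 2 libraries farthest from the median. CHS1 and CHS2 had r of -0.42 and -0.41 (exact permutation p = 0.319 and 0.356; adjusted p = 0.405). Of these 7, 3 go against their label, and too few remain without them for a value.

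**Figure D5:**
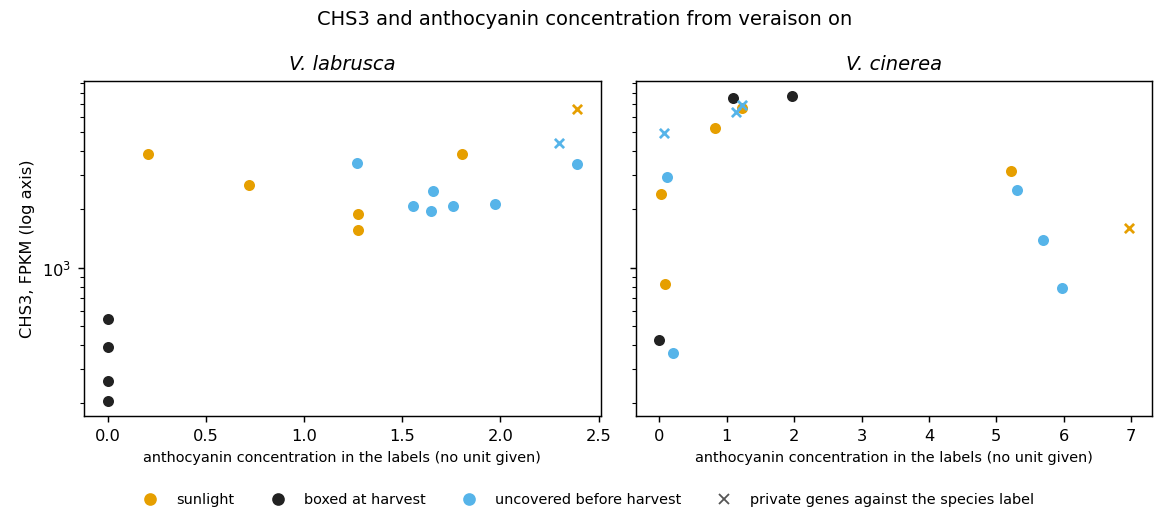
CHS3 (FPKM, log axis) against the anthocyanin concentration in the labels (no unit given) from veraison on in V. labrusca and V. cinerea; each point is 1 library. The 4 boxed V. labrusca libraries lie at 0, and the 5 V. cinerea libraries at 5.22 or more lie at 3150 FPKM of CHS3 or below.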

How the data were processed

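Total RNA of berries was sequenced in 56 libraries. The authors deposited 1 table of FPKM values per gene and library; the submitters' processing notes name TopHat2 2.0.14 and Cufflinks 2.2.1, while of the genome build nothing is stated there. No counts can be had from FPKM, which leaves depth and counting error unknown. Genes reaching 1 FPKM in 2 or more of the fitted libraries were tested on log2(FPKM + 1) in limma 3.58.1 (R 4.3.3, trended empirical Bayes): a light fit with species by stage as covariate, and a fit of V. labrusca and V. cinerea with 1 coefficient per group, in which lone libraries are assumed to vary like the others. The light fit was tested on simulated data, and the group fit was not. A library was called sparse where the lowest 1% of its values ended above 1 FPKM (3 V. labrusca libraries). Copy ratios were tested by exact permutation, relations by exact or 100000 permutations. Alternatives were another pseudocount, filter and scaling, a replicate block, and leaving out libraries. The relation to anthocyanin was planned over all libraries and is given within clusters, chosen after seeing the data, as were the species differences at maturity and the share of CHS3 in ripening. The 3 genes are always named, other genes from lists or as the 5 most alike. Members and lists were chosen with earlier results of these data known, and gene names were recalled from the literature, not checked against an annotation.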

Additional observations from a re-analysis of the deposited data

Results flagged for a closer look

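The response of chalcone synthase at maturity differed between V. labrusca and V. cinerea by the test of the difference itself (limma, Benjamini-Hochberg adjustment), in contrasts chosen after the values were seen. For boxed minus sunlight the difference was -5.21 for CHS3 on the log2 scale (adjusted p = 0.0261); both boxed libraries were lower than sunlight in V. labrusca and both were higher in V. cinerea. For uncovered minus never uncovered it was 4.28 for CHS1 (adjusted p = 0.0462), 3.91 for CHS2 (adjusted p = 0.00867) and 5.63 for CHS3 (adjusted p = 0.00512). The call of the CHS3 value of -5.21 was lost without the 9 libraries whose private genes go against the label (-3.83, adjusted p = 0.248) and without any 1 of 5 single libraries. The call of the CHS1 value of 4.28 was lost without 8 of the 10 libraries left out in turn, and the CHS2 value without 1. The CHS3 value of 5.63 kept its call under all of these. Of the libraries behind these values, the first mature sunlight V. cinerea library and the second mature V. labrusca libraries in sunlight and uncovered at pre-veraison have private genes of another species. Groups held at most 2 libraries, so none could be searched for an outlying library.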

How the results depend on the processing

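Of 157 results, each recomputed under the named alternatives, 1055 of 1119 values kept direction and side of the threshold; with 1 library left out, 1095 of 1216 did. None of the 32 called differences reversed, 20 kept their call under every named alternative and 11 without any 1 library; where a call was lost the cause was not tested. Values are log2 differences unless said otherwise.

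Without the 9 libraries whose private genes go against the label, the sunlight difference from pre-veraison to maturity was 2.72 for CHS1 in V. labrusca (now called) and -0.38 in V. cinerea. Boxed minus sunlight over stages turned to -0.21 for CHS3 in V. cinerea and to -1.13 for CHS1 and -0.81 for CHS2 in V. acerifolia. From 2 weeks after veraison to maturity, V. labrusca turned to 0.0043 for CHS1 and -0.39 for CHS3 and V. cinerea to -0.69 for CHS1, and V. labrusca minus V. cinerea in mature sunlight berries to -0.74 for CHS3. In boxed minus sunlight V. labrusca, the log2 ratios turned to 0.13 (CHS2 to CHS1), 0.20 (CHS3 to CHS1) and 0.073 (CHS3 to CHS2) and the share of CHS3 to 1.60 points. The correlation with anthocyanin in V. labrusca turned to 0.52 for CHS1 and -0.14 for CHS3. With clusters pooled it was 0.55 for CHS1 in V. labrusca and 0.27 and 0.62 for CHS1 and CHS2 in V. cinerea; the other pooled values and adjusted p-values stand beside the relation above.

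Without the 2 libraries of conflicting stage, boxed minus sunlight over stages was -1.81 for CHS1 in V. labrusca, no longer called. The boxed steps turned to 0.66 for CHS1 (pre-veraison to veraison) and -0.35 for CHS2 (veraison to maturity), and V. labrusca minus V. cinerea in boxed berries at veraison to 0.37 for CHS3.

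Replicate numbers were not used to pair the samples in the main fits, and whether they mark a shared origin is unknown. Same-numbered deviations correlated over 0.1 in 6 of 66 pairs of V. labrusca groups (highest r 0.733) and 14 of 36 of V. cinerea (highest r 0.425). With the replicate block, the last-named difference was 0.11, and calls were gained for CHS1 in boxed mature V. labrusca (-3.04, limma adjusted p = 0.0499), for CHS3 from young berry to pre-veraison in V. cinerea (2.52, 0.0368) and for CHS3 between sunlight pre-veraison berries of the species (-3.63, 0.00618); no other call changed. The last 2 rest on the single sunlight pre-veraison V. cinerea library, whose number decides its block term.

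The count of all genes called in boxed against sunlight V. cinerea was 73, and 23 with a pseudocount of 0.1, 130 without the filter, 123 without the 9 libraries, 185 without the sparse ones, 47 without those of conflicting stage and 2 in a fit of the species alone. In V. labrusca it was 1277, and 638 without those of conflicting stage and 826 without the sparse ones; from pre-veraison to maturity it was 3904, and 2407 without the 9. Scaling to median ratios moved the share of higher calls from 78.0% to 57.5% in boxed V. labrusca, 75.3% to 55.9% in boxed V. cinerea, 20.8% to 39.9% and 29.9% to 41.7% in uncovered mature V. labrusca and V. cinerea, and 25.5% to 38.3% and 21.1% to 32.5% from pre-veraison to maturity, and reversed no copy. The share of CHS3 has no pseudocount to change.

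With 1 library left out, boxed minus sunlight over stages ran from -0.20 to 0.95 for CHS3 in V. cinerea and, in V. acerifolia, from -1.05 to 0.82 for CHS1 and -0.80 to 0.74 for CHS2. Re-exposed differences ran from -0.072 to 0.29 for CHS2 and -0.20 to 0.37 for CHS3 against sunlight in V. labrusca, and from -0.0044 to 0.40 for CHS1 against boxed in V. cinerea. Uncovered minus never uncovered ran from 2.82 to 4.44 for CHS1 and 2.70 to 3.27 for CHS3 in V. labrusca and from -2.86 to -2.43 for CHS3 in V. cinerea. Sunlight steps in V. cinerea ran from -0.25 to 0.62 (CHS2, young to pre-veraison), -0.0065 to 1.54 (CHS3, to veraison), -0.69 to 1.11 (CHS1, last step) and -0.38 to 1.42 (CHS1, pre-veraison to maturity). In V. labrusca they ran from -1.02 to 0.27 (CHS3, veraison to 2 weeks later) and, in the last step, -2.45 to 0.0043 for CHS1 and -0.39 to 1.42 for CHS3. Boxed steps in V. labrusca ran from -2.18 to 0.66 for CHS1 and -0.95 to 1.27 for CHS2 to veraison, and from -1.80 to 1.04, -0.35 to 1.87 and -0.77 to 0.63 for CHS1, CHS2 and CHS3 to maturity. In V. cinerea they ran from -0.33 to 0.20 for CHS3 to veraison and -0.15 to 0.70 for CHS1 from pre-veraison to maturity. V. labrusca minus V. cinerea ran, for young berries, from -0.31 to 1.90 (CHS2) and -0.66 to 1.47 (CHS3), for mature sunlight berries from -0.67 to 1.78 (CHS1) and -0.25 to 1.55 (CHS3), for boxed pre-veraison berries from -0.20 to 0.66 (CHS1) and -0.70 to 0.29 (CHS2), and for boxed veraison berries from -1.33 to 1.51, -0.54 to 1.68 and -1.03 to 0.37. The boxed-minus-sunlight ratios ran from -0.61 to 0.13, -1.22 to 0.20 and -0.73 to 0.19 in V. labrusca and -0.37 to 0.17 (CHS2 to CHS1) in V. cinerea, and the V. labrusca share of CHS3 from -9.14 to 4.27 points. Groups hold at most 2 libraries and depth is unknown, which limits what could be detected.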
